A study of Mus musculus with 6 samples.

Results

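The genes described here encode the machinery that fills, docks, primes and fuses synaptic vesicles, the transmitter-filled organelles of the presynaptic terminal. They were chosen by name and role, with no threshold on a measured value, and comprise 45 of the 52550 gene identifiers listed for each library. Of these, 44 passed the filter on low counts and were among the 14913 genes tested, and Syt10 was left out by it. By role they are 13 synaptotagmins, 3 synapsins, 5 vesicle membrane proteins, 2 vesicular glutamate transporters, 6 SNARE proteins, 2 complexins, 3 proteins of SNARE disassembly, 3 Rab3 GTPases and 8 proteins of the active zone and of priming.

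The libraries hold polyadenylated RNA of the cortex of C57BL6/J mouse pups at postnatal day 2. In the knockout group (Slc7a5fl/fl; Emx1Cre+, n = 3) Cre recombinase removes both floxed copies of Slc7a5, which encodes a carrier of leucine and other large neutral amino acids, and the control group (Slc7a5fl/fl; Emx1Cre-, n = 3) carries the same floxed alleles without Cre. Emx1-driven Cre acts in the progenitors of dorsal forebrain excitatory neurons and glia, whereas most cortical interneurons, microglia and vessels come from other lineages and keep the gene. Every knockout pup carried Cre and no control pup did, so an effect of Cre itself cannot be told apart from that of the deletion.

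A synaptic vesicle is loaded by a transporter specific for its transmitter, is held near the release site by synapsins and Rab3, and is made ready to fuse by Munc13 and RIM proteins at the active zone. Fusion is driven by the assembly of the SNARE proteins of vesicle and plasma membrane, is timed by synaptotagmins that sense calcium, with complexins bound to the SNARE complex, and is followed by disassembly of that complex by NSF and its SNAP adaptors. In the newborn mouse cortex synapses are still few, and transcripts of this machinery are already made by immature neurons.

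The labels were first checked on the deleted gene. Slc7a5 (chromosome 8, 121881150 to 121907694, minus strand, GRCm38) had 15.6, 9.37 and 11.4 CPM (counts scaled to the library's total) in knockouts A, B and C, against 20.2, 40.7 and 26.1 CPM in controls A, B and C, so every knockout was below every control. Its log2 change, knockout over control, was -1.25 ± 0.28 (SE, adjusted p = 0.40 in edgeR's quasi-likelihood test, 4.3e-04 in DESeq2). Reads assigned to genes numbered 8249436 to 10372582 in each library. The share of mapped reads that fell in no gene's exons on the counted strand was higher in every knockout than in every control. Reads at exons on the opposite strand can be part of that share. It was 27.4, 27.9 and 27.8% in knockouts A, B and C, against 26.5, 22.5 and 23.0% in controls A, B and C. The effect of that difference on the values below was not tested. The cortical label was matched by markers of projection neurons such as Neurod2 (899.9 to 948 CPM in knockouts, 842 to 899 CPM in controls) and Tbr1 (189.8 to 241 CPM in knockouts, 229 to 236 CPM in controls). Ttr, a choroid plexus transcript, had 2.37 to 27.2 CPM in the knockouts, against 144 CPM in control B, which stood apart, and at most 2.14 CPM in the other controls. The libraries B of both genotypes were the ones with Xist, a transcript of female cells, at 961 CPM in the knockout and 918 CPM in the control. The effect of choroid plexus tissue and of sex on the values below was not tested.

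In edgeR's fit on genotype alone, with the filter on low counts, no member passed an adjusted p under 0.05. The 8 members with an unadjusted p under 0.05 were all lower in the knockout. In edgeR's quasi-likelihood test over all genes 0 of 44 members were called, where 0.0335% of all tested genes were (5 genes), and DESeq2 also called 0 members (25 genes in all). At an unadjusted p under 0.05 there were 8 members lower and 0 higher, or 18.2% of the members, where 3.81% of all tested genes were lower at that level. In 10 members every knockout library lay below every control library, or 22.7%, where 6.28% of all tested genes did so, and in 0 members did every knockout lie above every control (879 of all genes). Of the 44 members 29 had a negative and 15 a positive log2 change, with a median of -0.071, beside a median of 0.0011 over all tested genes. That median was -0.019 without knockout B, -0.13 without knockout A and -0.11 without control B, and the 8 members at an unadjusted p under 0.05 became 4 without control B. The genes were measured in the same 6 libraries and are not independent of each other, so these counts are descriptions. In bulk tissue fewer cells of a type and less RNA per cell cannot be told apart.

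The 2 genotypes carry the same letters A, B and C, and libraries with the same letter deviated together. With the letter as a block in edgeR's fit 2 members passed, the vesicular glutamate transporter Slc17a7 and the vesicle protein Sv2b, both lower, where 0.516% of all tested genes were called lower in that fit. The blocked fit leaves 2 residual degrees of freedom per gene, and DESeq2 with the same block called 0 members and 28 genes in all. The deleted gene Slc7a5 did not pass with the block (adjusted p = 0.42 in edgeR's fit, 0.47 in DESeq2). Its differences within letters A, B and C were -0.36, -2.06 and -1.16 on the log2 scale. Abundant genes as a whole leaned the same way. Among all tested genes with a mean above 50 CPM, 62.0% of 4338 were lower in the knockout, and the median was -0.038 on the log2 scale, and of the 30 members above that level 83.3% were lower, with a median of -0.11. In that class every knockout was below every control in 9 of the 30 members and in 425 of the 4338 genes. At an unadjusted p under 0.05 in edgeR's group-only fit 7 of these members and 294 of these genes were lower.

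**Figure D1:**
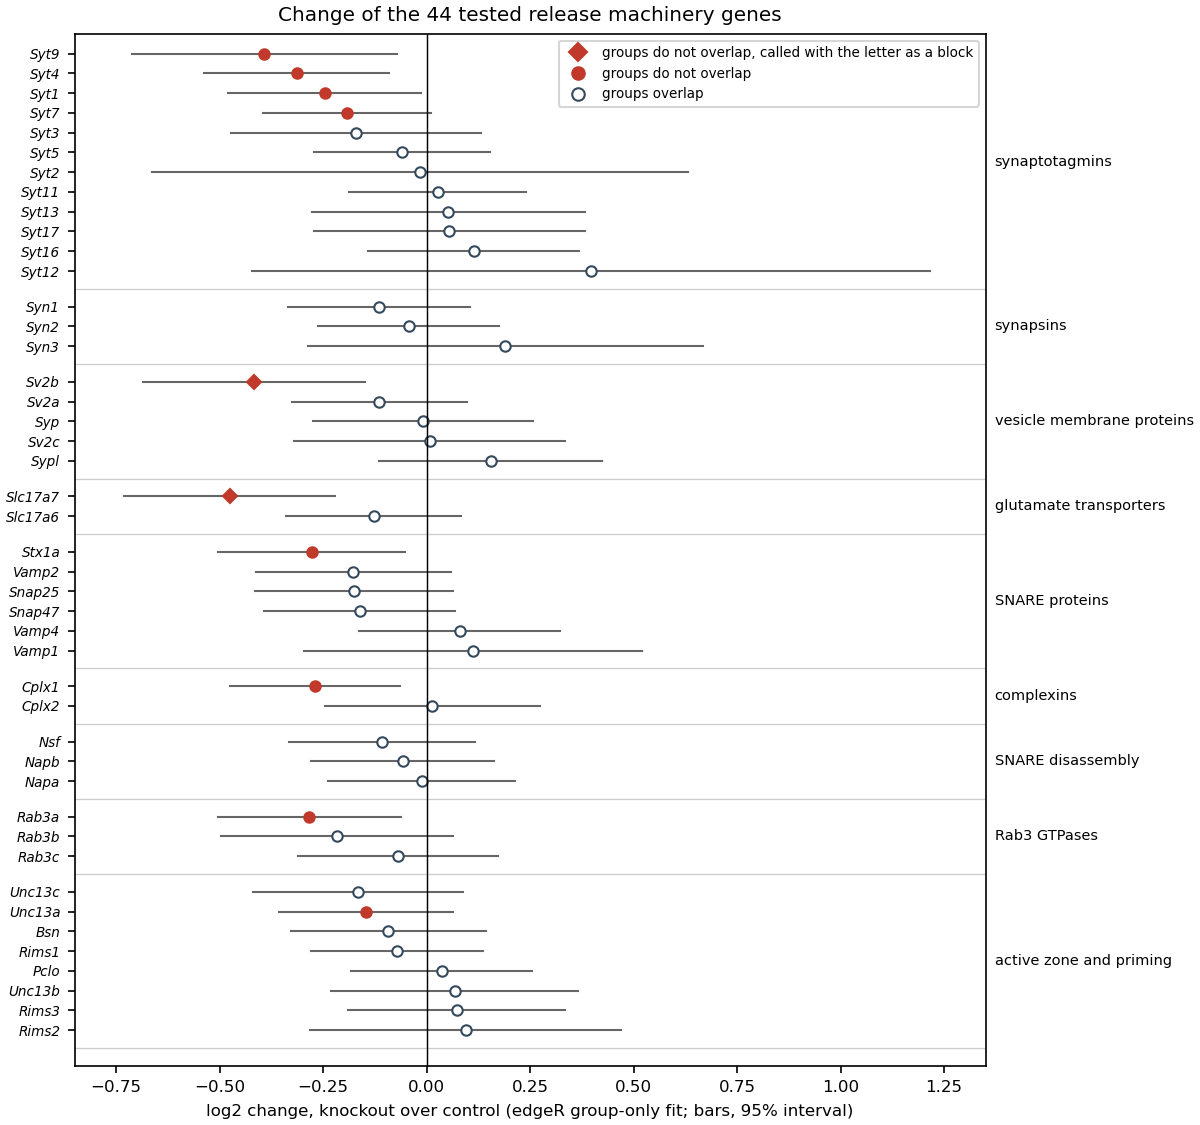
Log2 change, knockout over control, of each of the 44 tested genes (horizontal axis) with its 95% interval from edgeR's group-only fit, grouped by role down the page. The 10 filled symbols mark genes whose 3 knockout libraries all lie below the 3 control libraries, and the 2 diamonds mark Slc17a7 and Sv2b, which also passed with the letter as a block.

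Precision differed little between most members. The median width of a 95% interval to either side of the change was 0.24 on the log2 scale, and for 34 of 44 members the whole interval lay within 0.5 of 0. For these members a difference of that size or more lay outside the interval. The widest intervals belonged to genes near the detection limit, above all Syt12 (-0.42 to 1.21).

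Levels between genes were compared per exon length, in TPM, which scales counts by gene length and library total. The most abundant member was Rab3a, the main Rab GTPase of synaptic vesicles, with 656 ± 59.7 TPM in knockouts and 766 ± 15.2 TPM in controls (SD, n = 3 each). It was followed by Vamp2, the vesicle SNARE synaptobrevin 2, with 481 ± 52.5 TPM in knockouts and 523 ± 34.1 TPM in controls, and by Syt4 with 457 ± 16.6 TPM in knockouts and 545 ± 48.7 TPM in controls. The order of neighbours depended on the length used: with the median length of the coding transcripts in place of the joined exons, Vamp2 came before Rab3a and Syt7 moved from position 9 to position 3. At the low end were Syt2 (1.38 ± 0.375 TPM in knockouts, 1.34 ± 0.30 TPM in controls), Syt12 (1.19 ± 0.366 TPM in knockouts, 0.871 ± 0.284 TPM in controls) and Syt10. Syt2 is the fast calcium sensor of brainstem and some inhibitory synapses.

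**Figure D2:**
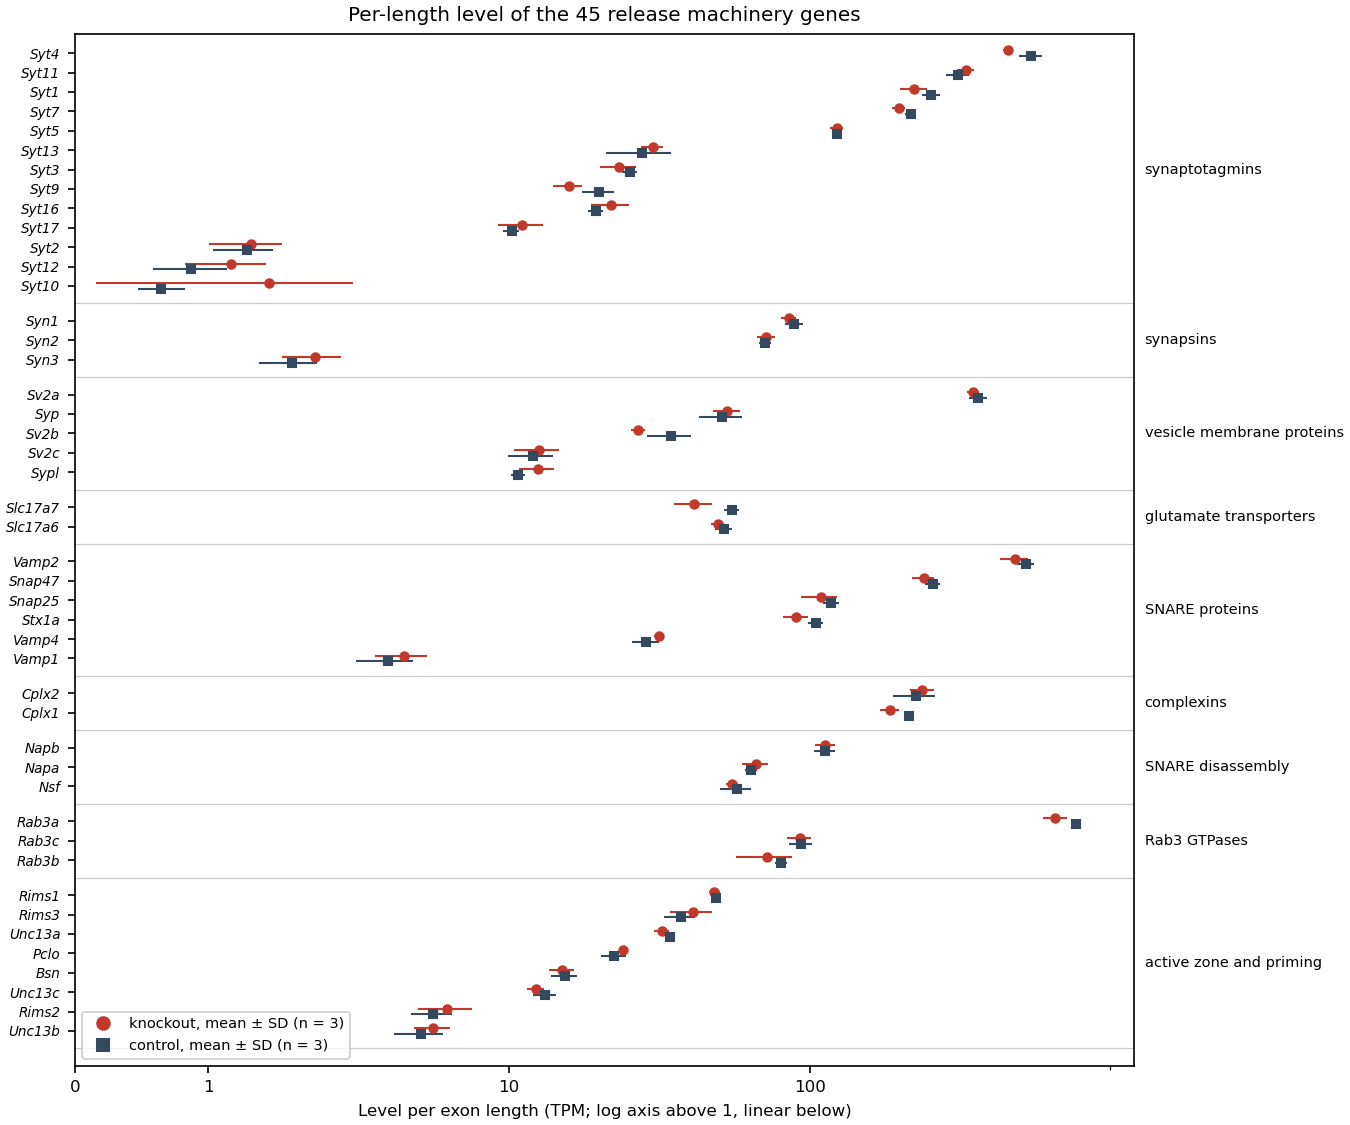
Mean level per exon length (TPM, log axis above 1) of the 45 genes with the SD over 3 libraries, knockout above control in each row, grouped by role. The means run from 1.19 TPM for Syt12 to 656 TPM for Rab3a in knockouts. In controls they run from 0.646 TPM for Syt10 to 766 TPM for Rab3a. In most rows the bars of the genotypes overlap.

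The vesicular glutamate transporters gave the member with the largest difference among those that passed with the block. Slc17a7 encodes VGLUT1, which loads glutamate into vesicles of cortical excitatory neurons and becomes more abundant as the cortex matures. It had 66.5, 52.8 and 71.1 CPM in knockouts A, B and C, against 82.9, 95.6 and 86.2 CPM in controls A, B and C. All knockouts were below all controls, and the gap was widest between the libraries B. The log2 change was -0.48 ± 0.12 (95% interval -0.73 to -0.22), a level 0.719 times that of the controls, with an adjusted p of 0.309 in the group-only fit, 0.120 in DESeq2 and 0.0160 with the letter as a block. Without pair B the blocked log2 change was -0.29 and the call was lost (adjusted p = 0.170), and without pair A or pair C it held (0.00460 and 0.0103). In the group-only fit without the filter on low counts Slc17a7 passed (adjusted p = 0.0214). That fit called 71 genes in all, against 5 with the filter. Its paralog Slc17a6 encodes VGLUT2, the transporter of thalamic and early cortical glutamate neurons, and had 76.4, 72.1 and 79.3 CPM in knockouts A, B and C, against 84.0, 78.8 and 86.0 CPM in controls A, B and C. The log2 change was smaller, -0.13 ± 0.10 (adjusted p = 0.849), and the highest knockout exceeded the lowest control. Per exon length the levels were 41.3 ± 6.01 TPM in knockouts and 55.1 ± 3.13 TPM in controls for Slc17a7, and 49.4 ± 2.49 TPM in knockouts and 51.8 ± 3.24 TPM in controls for Slc17a6.

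**Figure D3:**
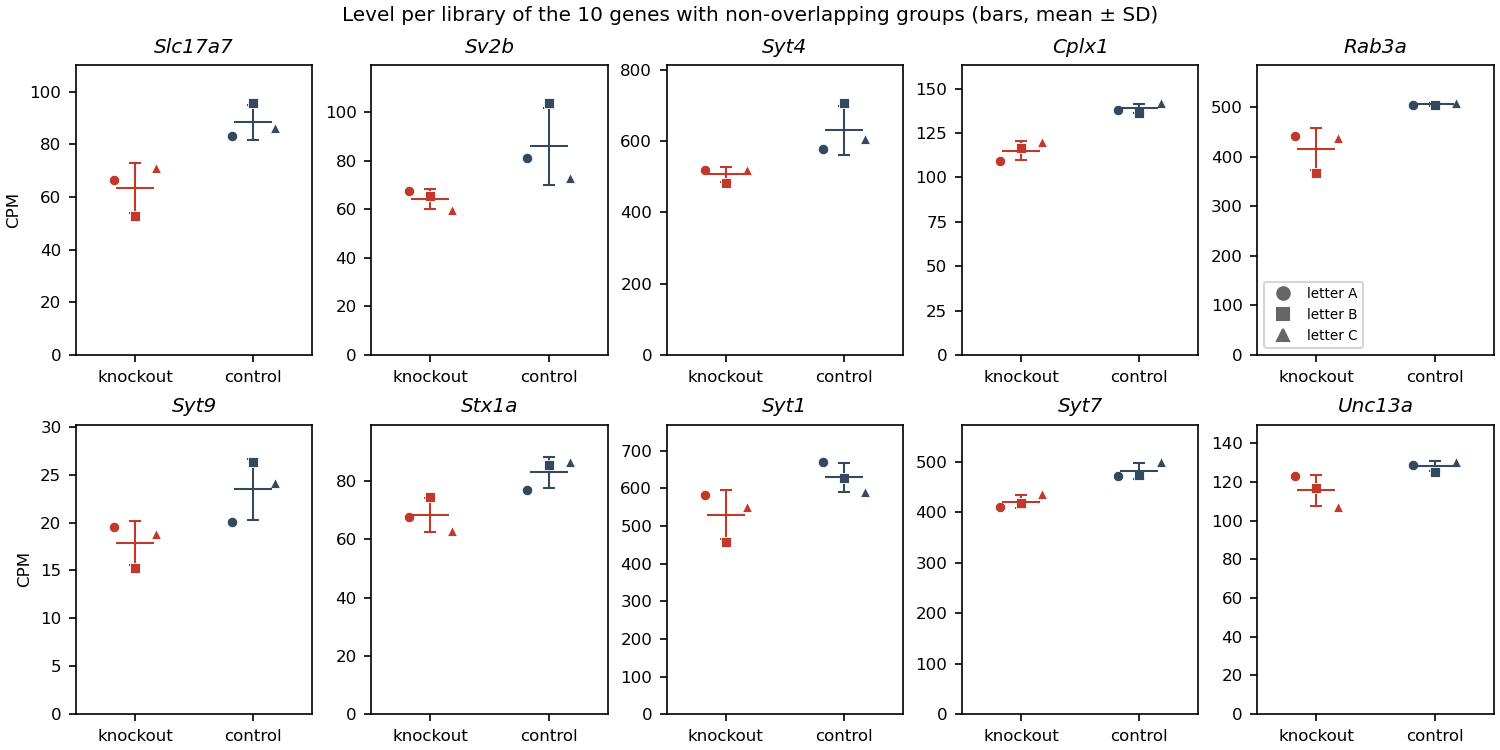
CPM in each of the 6 libraries for the 10 genes whose groups did not overlap, with knockouts left of controls, symbols for the letters A, B and C, and bars for the mean and SD (n = 3 each). In each panel all 3 knockout points lie under all 3 control points. For Slc17a7, Sv2b, Syt1, Syt4, Syt9 and Rab3a the gap within a letter is widest for letter B.

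Markers of projection neurons were set beside Slc17a7, which is itself 1 of the 7 in the list. The summed level of the other 6 was 2654 to 2995 CPM in knockouts and 2717 to 3034 CPM in controls, 3 of them were lower and 3 higher, and none was called in the group-only fit. Pan-neuronal markers summed to 9502 to 11402 CPM in knockouts and 11005 to 11888 CPM in controls, with 7 of 8 lower and a median log2 change of -0.12. Interneuron markers summed to 1563 to 1921 CPM in knockouts and 1509.8 to 1627 CPM in controls, with 9 of 10 higher, 4 of them without overlap. Gad2, a GABA-synthesising enzyme, passed with the block (117, 116 and 127 CPM in knockouts A, B and C, against 106, 60.5 and 86.1 CPM in controls A, B and C, blocked adjusted p = 0.0191). Radial glia and intermediate progenitor markers summed to 385 to 414 CPM in knockouts and 332 to 378 CPM in controls, with 6 of 7 higher, 3 of them without overlap, and a median log2 change of 0.30. Of all 14913 tested genes 879 were higher without overlap. Oligodendrocyte lineage markers summed to 201 to 218 CPM in knockouts and 227 to 269 CPM in controls, with 6 of 6 lower and a median log2 change of -0.20. Microglia markers summed to 121 to 166 CPM in knockouts and 104 to 134 CPM in controls, endothelial markers to 127 to 155 CPM in knockouts and 113 to 153 CPM in controls, and astrocyte markers to 583 to 680 CPM in knockouts and 583 to 678 CPM in controls. In these lists 6 of 7 microglia markers, 6 of 6 endothelial markers and 2 of 6 astrocyte markers were higher. Their median log2 changes were 0.19, 0.18 and -0.034, in that order. Striatal markers summed to 288 to 339 CPM in knockouts and 282 to 354 CPM in controls, markers of thalamus and other regions outside the cortex to 47.0 to 47.6 CPM in knockouts and 35.1 to 65.9 CPM in controls, and choroid plexus markers to 8.64 to 32.9 CPM in knockouts and 3.32 to 149 CPM in controls, with Folr1 and Kl at 0 in 1 library each. The part of these cell types in the member values was not tested.

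Sv2b, a glycoprotein of the synaptic vesicle membrane, was the lowest of the vesicle membrane proteins relative to control. It had 67.7, 65.6 and 59.5 CPM in knockouts A, B and C, against 81.2, 104 and 72.9 CPM in controls A, B and C. No knockout reached the lowest control, and control B was the highest library. The log2 change was -0.42 ± 0.13 (95% interval -0.69 to -0.15), with an adjusted p of 0.473 in the group-only fit, 0.322 in DESeq2 and 0.0368 with the letter as a block. The blocked call held without pair A (adjusted p = 0.0296) and was lost without pair B (0.239) or pair C (0.114), and the group-only log2 change was -0.26 without control B. Its paralog Sv2a, the protein to which the antiepileptic drug levetiracetam binds, was the most abundant vesicle membrane gene, with 350.3 ± 15.8 TPM in knockouts and 364 ± 23.8 TPM in controls. Sv2a had 484, 432 and 472 CPM in knockouts A, B and C, against 525, 475 and 502 CPM in controls A, B and C, a log2 change of -0.11 ± 0.10 with overlapping groups (-0.065 without knockout B). Synaptophysin (Syp, -0.0084 ± 0.13), Sv2c (0.0072 ± 0.15) and the synaptophysin-like Sypl (0.15 ± 0.13) lay on either side of 0.

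The sequences before the start sites of both genes that passed with the block and of their closest paralogs were read out, since each pair shares a role and differed in its values. The 250 bases upstream of the start site are from RefSeq windows on GRCm38.p6, 5′ to 3′ on the strand of the gene, and where RefSeq lists several start sites the window nearest to the annotated gene start is shown. Capitals mark GC boxes, GGGCGG or its reverse complement.
Slc17a7, chr7:45163671-45163920, plus strand: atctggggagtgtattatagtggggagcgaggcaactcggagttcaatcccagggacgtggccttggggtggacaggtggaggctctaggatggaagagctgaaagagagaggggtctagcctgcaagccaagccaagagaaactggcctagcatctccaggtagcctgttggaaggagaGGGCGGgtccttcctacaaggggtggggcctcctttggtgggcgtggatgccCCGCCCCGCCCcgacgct
Slc17a6, chr7:51621580-51621829, plus strand: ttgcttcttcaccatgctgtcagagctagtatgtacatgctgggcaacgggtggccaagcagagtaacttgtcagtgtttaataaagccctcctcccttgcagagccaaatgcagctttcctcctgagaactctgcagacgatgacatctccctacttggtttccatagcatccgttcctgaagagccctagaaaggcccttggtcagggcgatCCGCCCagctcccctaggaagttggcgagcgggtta
Sv2b, chr7:75309263-75309512, minus strand: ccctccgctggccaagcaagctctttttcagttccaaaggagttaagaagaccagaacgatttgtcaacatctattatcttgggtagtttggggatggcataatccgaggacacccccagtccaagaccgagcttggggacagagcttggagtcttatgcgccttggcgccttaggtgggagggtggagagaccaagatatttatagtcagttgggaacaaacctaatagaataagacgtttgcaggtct
Sv2a, chr3:96180977-96181226, plus strand: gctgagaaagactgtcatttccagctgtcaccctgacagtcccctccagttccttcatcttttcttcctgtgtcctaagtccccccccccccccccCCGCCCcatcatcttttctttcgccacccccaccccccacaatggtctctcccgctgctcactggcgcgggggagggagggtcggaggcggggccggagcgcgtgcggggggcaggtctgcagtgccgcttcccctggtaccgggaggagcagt
The Slc17a7 window held 3 GC boxes, a pair of which overlap next to the start site, and those of Slc17a6 and Sv2a held 1 each. The Sv2b window held 0 and had 48.8% G and C, against 66.0% in that of Sv2a, 61.2% in that of Slc17a7 and 53.2% in that of Slc17a6. A window was found for 35 of the 45 members by symbol. A GC box on either strand was in 27 of these 35 and in 32.7% of all 32851 windows in the table. Members were counted at 1 window each, the nearest to the annotated gene start, and the whole set at every window, several for some genes. The member counts and the shares over all windows therefore cover unlike sets, here and for the motifs below. The cAMP response element TGACGTCA was in 1 member window, that of Syn1, and in 1.55% of all windows, and the Egr motif GCGGGGGCG, which can share its last bases with a GC box, was in 2 member windows, those of Syn2 and Syt16, and in 2.57% of all. A match describes letters in the window and no binding was measured.

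The synaptotagmins, 12 of them tested, ranged from the most abundant genes of the machinery to the rarest. Syt1, the fast calcium sensor of forebrain synapses, had 582, 458 and 550.2 CPM in knockouts A, B and C, against 669, 627 and 590 CPM in controls A, B and C. The highest knockout was close to the lowest control, and the log2 change was -0.25 ± 0.11 (adjusted p = 0.708), or -0.15 without knockout B. Syt7, a slower sensor with high calcium affinity used in asynchronous release and facilitation, had 410.2, 419 and 436 CPM in knockouts A, B and C, against 472, 474 and 499 CPM in controls A, B and C. Its libraries were tightly grouped within each genotype, without overlap, and its log2 change was -0.19 ± 0.096 (adjusted p = 0.728), nearly equal in the 3 letter pairs (-0.20, -0.18 and -0.20 for A, B and C). Syt9, related to Syt1 and able to act as a fast sensor, had 19.6, 15.3 and 18.8 CPM in knockouts A, B and C, against 20.03, 26.3 and 24.1 CPM in controls A, B and C. Knockout A and control A were nearly alike, and the log2 change was -0.39 ± 0.15 (adjusted p = 0.633).

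Syt4, a synaptotagmin of secretory vesicles in axons and dendrites, was the most abundant of the family per exon length. It had 519, 482 and 520 CPM in knockouts A, B and C, against 577, 707 and 607 CPM in controls A, B and C. The knockouts lay close together and below all controls, and the log2 change was -0.31 ± 0.10 (95% interval -0.54 to -0.091, adjusted p = 0.526). Syt11, which does not bind calcium and is second to Syt4 within the family, had a log2 change of 0.026 ± 0.10, with 331 ± 21.1 TPM in knockouts and 312 ± 27.9 TPM in controls. In the remaining 7 tested synaptotagmins the groups overlapped, and their log2 changes ran from -0.17 for Syt3 to 0.40 for Syt12, where the SE was 0.39. Syt10 had 17, 4 and 4 counts in knockouts A, B and C, against 4, 2 and 4 counts in controls A, B and C, too few to be tested, and only knockout A stood above the rest.

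Synapsins coat vesicles and hold them in a reserve near the release site. Syn1 had 87.3, 79.0 and 74.6 CPM in knockouts A, B and C, against 92.9, 85.1 and 82.9 CPM in controls A, B and C, a log2 change of -0.12 ± 0.10 (adjusted p = 0.871), or -0.18 without knockout A and -0.066 without control A. Syn2 had 147, 132 and 152 CPM in knockouts A, B and C, against 149, 157 and 139 CPM in controls A, B and C (-0.043 ± 0.10). The groups overlapped for both. Syn3 was rare (2.26 ± 0.502 TPM in knockouts, 1.89 ± 0.412 TPM in controls), and 86.7% of the reads at its exons lay on the opposite strand, which the stranded counts leave out.

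Among the SNARE proteins Stx1a, the plasma membrane syntaxin of neurons, had the lowest change. It had 67.8, 74.5 and 63.0 CPM in knockouts A, B and C, against 76.9, 85.6 and 86.5 CPM in controls A, B and C. The groups did not overlap, and the log2 change was -0.28 ± 0.11 (adjusted p = 0.633). Its partners in the fusion complex had overlapping groups and smaller differences. Vamp2 had 578, 538 and 451 CPM in knockouts A, B and C, against 626, 597 and 549 CPM in controls A, B and C, a log2 change of -0.18 ± 0.11 that was negative in each letter pair (-0.11, -0.15 and -0.29 for A, B and C) and was -0.084 without knockout C. For Snap25 the log2 change was -0.18 ± 0.11 and for Snap47, a relative of Snap25, it was -0.16 ± 0.11, and without knockout C they were -0.10 and -0.092. Vamp1, the synaptobrevin that prevails in brainstem and spinal cord, was present at 13.6, 10.1 and 15.1 CPM in knockouts A, B and C, against 12.4, 9.30 and 14.0 CPM in controls A, B and C. It was the 1 tested member with a higher value in the knockout in every letter pair (0.13, 0.11 and 0.11 for A, B and C), with overlapping groups and a log2 change of 0.11 ± 0.19. Vamp4, a SNARE of the trans-Golgi network and endosomes, had a log2 change of 0.079 ± 0.11.

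Complexins clamp and promote fusion at the assembled SNARE complex, and the paralogs differed in their values. Cplx1 had 109, 116 and 120 CPM in knockouts A, B and C, against 138, 136 and 142 CPM in controls A, B and C. Both groups were narrow, with a clear gap between them, and the log2 change was -0.27 ± 0.097 (95% interval -0.48 to -0.065, adjusted p = 0.572). Cplx2 had 373, 327 and 299 CPM in knockouts A, B and C, against 370, 277 and 342 CPM in controls A, B and C, with a log2 change of 0.014 ± 0.12 and full overlap. The 3 genes of SNARE disassembly had log2 changes of -0.11 ± 0.11 for the ATPase Nsf, -0.058 ± 0.10 for Napb and -0.013 ± 0.11 for Napa, the SNAP adaptors that bring it to the complex. Napb, the brain form, was the most abundant of the 3 per exon length and had 227, 209 and 242 CPM in knockouts A, B and C, against 249, 219 and 239 CPM in controls A, B and C.

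The Rab3 GTPases, which bind RIM at the active zone when loaded with GTP, had 3 negative log2 changes. Rab3a had 443, 367 and 439 CPM in knockouts A, B and C, against 504, 506 and 509 CPM in controls A, B and C. The controls were almost identical and the knockouts lay below them, and the log2 change was -0.28 ± 0.10 (95% interval -0.50 to -0.063, adjusted p = 0.597). Rab3b had 71.1, 87.6 and 58.3 CPM in knockouts A, B and C, against 79.5, 90.3 and 82.8 CPM in controls A, B and C, a log2 change of -0.22 ± 0.13 (adjusted p = 0.796) with knockout B inside the control range. It was -0.38 without knockout B and -0.086 without knockout C. Rab3c had 354, 281 and 319 CPM in knockouts A, B and C, against 297, 359 and 346 CPM in controls A, B and C, a log2 change of -0.070 ± 0.11 in which pair A had the opposite sign (0.25).

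At the active zone 4 members had a negative and 4 a positive log2 change, with a median of -0.018. Rims1, a RIM scaffold that links Rab3, Munc13 and calcium channels, was the most abundant of the group per exon length and had 109, 96.0 and 98.7 CPM in knockouts A, B and C, against 105, 109 and 105 CPM in controls A, B and C (log2 change -0.072 ± 0.098). The giant scaffolds Bassoon (Bsn) and Piccolo (Pclo) had log2 changes of -0.092 ± 0.11 and 0.036 ± 0.10. Unc13a encodes Munc13-1, the main priming factor of glutamate synapses, and had 123, 117 and 107 CPM in knockouts A, B and C, against 129, 125 and 130.3 CPM in controls A, B and C. Its groups did not overlap, by a small margin, and the log2 change was -0.15 ± 0.099 (adjusted p = 0.824), or -0.096 without knockout C. On the opposite strand lay 39.8% of the reads at its exons, which are not in these counts. Unc13b had 33.3, 33.7 and 41.2 CPM in knockouts A, B and C, against 41.0, 29.4 and 32.7 CPM in controls A, B and C, with a log2 change of 0.068 ± 0.14 and overlapping groups, and the values of Unc13c, Rims2 and Rims3 were -0.17 ± 0.12, 0.094 ± 0.18 and 0.073 ± 0.12.

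The difference within each letter pair showed how evenly a gene was lower. In 20 of the 44 tested members the knockout was below the control of the same letter in all 3 pairs, or 45.5%, where 16.8% of all tested genes were, and in 1 member, Vamp1, it was above in all 3 (2413 of all genes). Among genes with a mean above 50 CPM, 56.7% of the 30 members and 24.8% of the 4338 tested genes were below in all 3. The median difference over the members was -0.094, -0.12 and -0.094 for letters A, B and C, beside 0.0030, 0.0053 and -0.011 over all tested genes. Cplx1 (-0.34, -0.23 and -0.24), Syt7 and Slc17a6 (-0.14, -0.13 and -0.12) were lower by similar amounts in each pair, in the order A, B and C. For Slc17a7 (-0.32, -0.85 and -0.28), Sv2b (-0.26, -0.66 and -0.29), Syt4 (-0.15, -0.55 and -0.22) and Rab3a (-0.19, -0.46 and -0.21) pair B gave the largest difference. Pair B also did so for Syt1 (-0.20, -0.45 and -0.099) and Syt9 (-0.034, -0.76 and -0.35), and Stx1a was lowest in pair C (-0.18, -0.20 and -0.45).

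**Figure D4:**
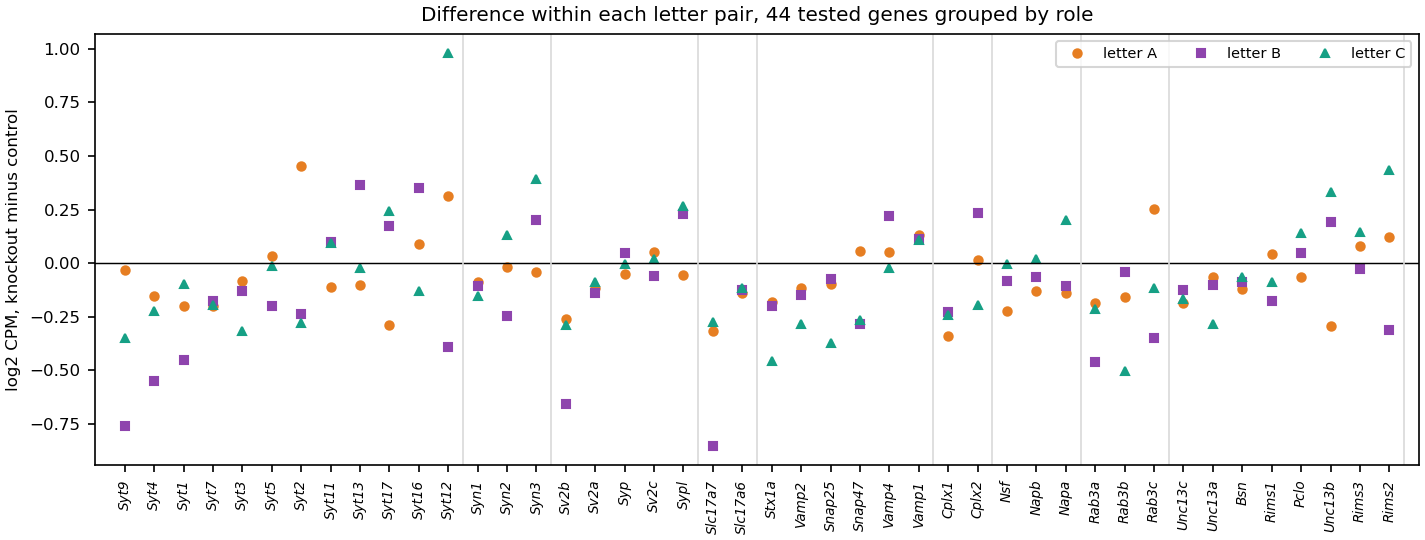
Difference in log2 CPM (0.5 CPM added), knockout minus control of the same letter, for the 44 tested genes grouped by role, with a symbol for each letter. In 20 genes all 3 symbols lie under 0, and the lowest points are those of letter B for Slc17a7 (-0.85), Syt9 (-0.76) and Sv2b (-0.66).

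Ratios of paralogs within a library do not depend on how libraries are scaled, and 6 were tested by exact permutation of the libraries, two-sided, where 3 against 3 cannot give a p below 0.1. Slc17a7 over Slc17a6 was 0.871, 0.732 and 0.896 in counts in knockouts A, B and C, against 0.987, 1.21 and 1.002 in controls A, B and C. All knockouts were below all controls, and the mean log2 ratio was -0.27 ± 0.16 in knockouts and 0.088 ± 0.17 in controls (SD, n = 3 each), a difference of -0.36 (exact p = 0.1, adjusted over the 6 ratios 0.3). Rab3a over Rab3c was 1.25, 1.30 and 1.37 in knockouts A, B and C, against 1.70, 1.41 and 1.47 in controls A, B and C, again without overlap (difference in log2 ratio -0.22, exact p = 0.1, adjusted 0.3). Cplx1 over Cplx2 differed by -0.29 with overlapping groups (exact p = 0.2, adjusted 0.4). For Vamp1 over Vamp2 the difference was 0.30 (exact p = 0.5), for Unc13a over Unc13b -0.23 (exact p = 0.4) and for Syn1 over Syn2 -0.072 (exact p = 0.6), each adjusted to 0.6. With this test no ratio could reach an adjusted p under 0.05. The permutation does not use the letters, and no test over pairs was run. Knockout minus control of the same letter had the same sign in all 3 pairs for Slc17a7 over Slc17a6 (-0.18, -0.73 and -0.16 for A, B and C), Cplx1 over Cplx2 (-0.35, -0.47 and -0.048), Vamp1 over Vamp2 (0.25, 0.27 and 0.40) and Rab3a over Rab3c (-0.44, -0.11 and -0.099), and the sign was mixed for the other 2. With 1 library left out the differences ran from -0.41 to -0.26 for Slc17a7 over Slc17a6, from -0.39 to -0.17 for Cplx1 over Cplx2 (nearest to 0 without knockout A), from -0.27 to -0.14 for Rab3a over Rab3c (without control A), from 0.081 to 0.50 for Vamp1 over Vamp2 (without knockout C) and from -0.36 to -0.072 for Unc13a over Unc13b (without knockout C).

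**Figure D5:**
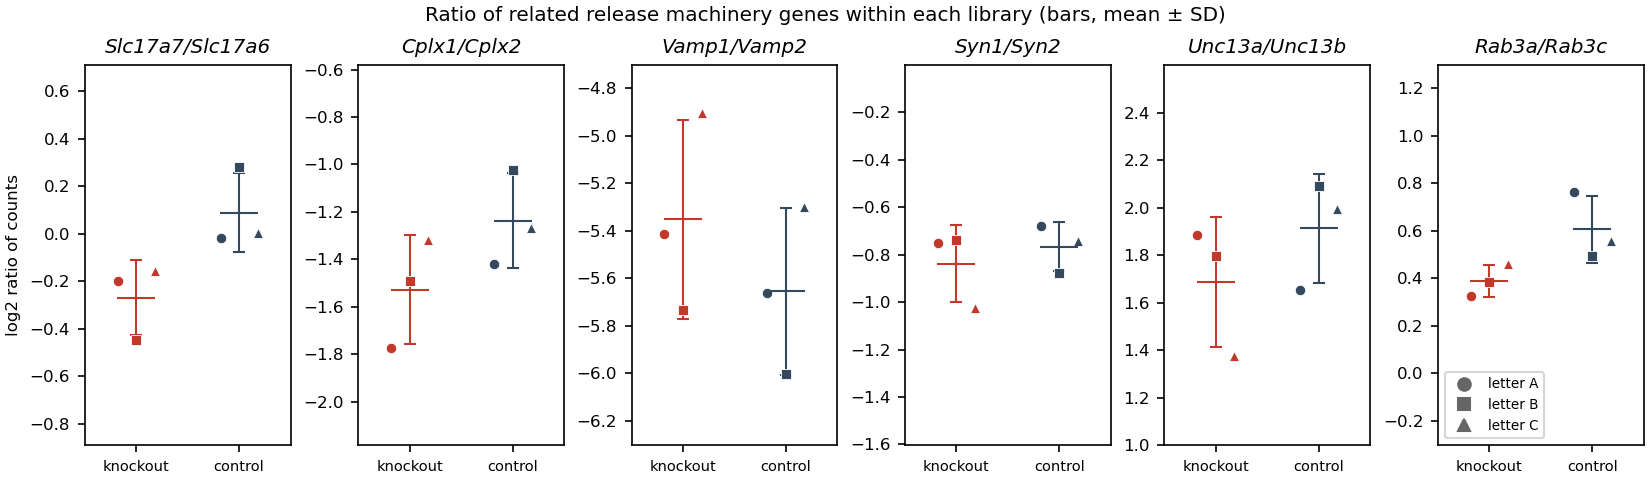
Log2 ratio of counts of 6 pairs of paralogs in each library, knockouts left of controls, with the mean and SD (n = 3 each). The ratios of Slc17a7 over Slc17a6 and of Rab3a over Rab3c are lower in all 3 knockouts than in all 3 controls, and the other 4 overlap.

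Other genes of the release pathway, 43 of them tested out of 45 matched by symbol, had a similar spread. They include further synaptotagmins, syntaxin-binding proteins, ELKS and liprin scaffolds, Doc2 proteins and endocytic factors, with 28 lower, 15 higher and a median log2 change of -0.053. In edgeR's group-only test and in DESeq2 0 were called. At an unadjusted p under 0.05 in edgeR's test 7 were lower (16.3%) and 0 higher, where 3.81% of all tested genes were lower. The groups did not overlap in 10 lower genes (23.3%) and 1 higher gene, where 6.28% of all tested genes were lower without overlap. With the letter as a block 1 passed, where 0.516% of all tested genes were called lower in that fit. It was Sncb, which encodes beta-synuclein of the presynaptic terminal. Sncb had 169, 136 and 175 CPM in knockouts A, B and C, against 197, 242 and 214 CPM in controls A, B and C. The groups were apart, with the widest gap between the libraries B, and the log2 change was -0.44 ± 0.12 (adjusted p = 0.40, with the block 0.0270). Its blocked call was lost without pair B (adjusted p = 0.190).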

How the data were processed

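The deposited values are raw, unnormalised read counts per gene, made by the authors with STAR 2.5.4 on GRCm38 (mm10), per the submitters' processing notes, with 1 table per library. The annotation release is not given in the sources used here. Libraries were made with the strand-specific Lexogen SENSE kit, per the labels' protocols, and the strand column with 18.6 times the reads of the other was used. The design text calls the libraries biological replicates. Symbols, coordinates and exon lengths came from GENCODE M21 on GRCm38 (52403 of 52550 identifiers matched), and upstream windows from RefSeq on GRCm38.p6.

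Counts were fitted in R 4.3.3 with edgeR 4.0.16 (filterByExpr, TMM, factors 0.979 to 1.04, robust quasi-likelihood F-test, two-sided, group only), with Benjamini-Hochberg adjustment over all 14913 tested genes and a threshold of 0.05. CPM scale the counts to each library's total with TMM factors. Standard errors were derived from the F statistic (absolute log2 change over its root). Alternatives were DESeq2 1.42.0, RLE scaling, no filter on low counts, counts of either strand, leaving out each library, and the letter of the titles as a block, also without each pair. Deviations from the group means correlated at 0.417, 0.342 and 0.211 over genes between knockout and control of letters A, B and C, each above 0.1. Libraries with the same letter were therefore treated as pairs in the blocked fits and in the differences within letters. The group-only fit, from which the printed standard errors and intervals come, does not use the letters. What the letters mark is not stated in the labels. Replicates of a group differed by more than sampling noise (chi-square over its degrees of freedom 7.65 or more).

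The members and lists were chosen with earlier results of these data known. Values per library are given for members that passed in either fit, the 10 with the smallest p, the most abundant of each role, the ratio pairs and members whose groups did not overlap. Of the other pathway genes, those that passed in either fit are named. Some values of single marker genes are not reported here.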

Additional observations from a re-analysis of the deposited data

How the results depend on the processing

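The count of all genes called (5) was 25 in DESeq2, 28 in DESeq2 with the letter as a block, 71 without the filter on low counts and 126 in edgeR with the block, which fell to 77 without pair C and was 228 and 161 without pairs A and B. With 1 library left out it ran from 1 to 9. Members called (0) were 1 without the filter (Slc17a7), 2 with the replicate block, 2 and 1 in that fit without pairs A and C, 0 without pair B, and 0 in every fit with 1 library left out. The block changed no other call among the members. Members lower at an unadjusted p under 0.05 (8) ran from 4 to 8 with 1 library left out. The members' median log2 change (-0.071) was -0.11, -0.072 and -0.093 in the blocked fit without pairs A, B and C and ran from -0.13 to -0.019 with 1 library left out. Of the other pathway genes (0 called) 1 passed with the block, 2 without pair A and 1 without pair C. The cause of these shifts was not tested.

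In 26 of 44 members the sign was the same in every alternative, among them the 10 whose groups did not overlap. The other 18, none of which passed in any fit, changed sign in at least 1 alternative. In the blocked fit their reversed values were 0.054 for Napa, -0.012 for Sv2c and 0.027 for Syp without pair A, then -0.086 for Cplx2, 0.036 for Napa, 0.073 for Rab3c, 0.061 for Syn2, -0.0033 for Syt11, -0.058 for Syt13, -0.014 for Syt16, -0.013 for Syt17, 0.10 for Syt2 and 0.014 for Syt5 without pair B. Without pair C they were -0.010 for Pclo, -0.086 for Rims2, -0.0065 for Syt11, -0.053 for Syt12, -0.059 for Syt17, 0.16 for Syt2 and -0.059 for Unc13b. On counts of either strand they were 0.011 for Syp and 0.16 for Syt2, and Syt12 gave no value. With 1 library left out, the log2 change ran from -0.094 to 0.10 for Cplx2, -0.087 to 0.027 for Napa, -0.028 to 0.11 for Pclo, -0.15 to 0.013 for Rab3c, -0.039 to 0.27 for Rims2, -0.045 to 0.19 for Rims3, -0.11 to 0.16 for Sv2c, -0.090 to 0.016 for Syn2, -0.12 to 0.088 for Syp, -0.026 to 0.076 for Syt11, -0.12 to 0.16 for Syt13, -0.023 to 0.17 for Syt17, -0.25 to 0.19 for Syt2, -0.041 to 0.21 for Unc13b and -0.028 to 0.27 for Vamp1. Of the 6 differences in log2 ratio 5 kept their sign in every alternative, and that of Syn1 over Syn2 ran from -0.13 to 0.022 with 1 library left out.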
